A study of Mus musculus with 12 samples.

Results

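The 6 metabotropic glutamate receptor genes Grm2, Grm3, Grm4, Grm5, Grm7 and Grm8 were taken by gene name from the 54532 genes in the deposited tables, and the values of their annotated transcripts were summed per gene. They were followed through 12 RNA-seq libraries of mouse hippocampus with 3 libraries in each of 4 groups: Atrx-cKO females, control females, Atrx-cKO males and control males, all from animals 3 months old. Atrx encodes a chromatin remodeller, cKO stands for conditional knockout, and the series describes the deletion as one in neurons. The labels used here name neither the Cre driver nor the floxed exons, and describe the controls by no more than the word control. The libraries were made from total RNA after removal of ribosomal RNA. The design text speaks of pairs of mice but the labels do not tie a library to a pair, so p-values measure the spread between libraries.

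Metabotropic glutamate receptors are G-protein-coupled receptors that slow or tune transmission at glutamate synapses, in contrast to the ion channels that carry the fast current. Group I, here Grm5, acts through Gq and phospholipase C, sits mostly around the postsynaptic density and is known in the hippocampus for its part in long-term depression and in calcium release from stores. Group II, Grm2 and Grm3, and group III, Grm4, Grm7 and Grm8, act through Gi and Go, lower cyclic AMP and mostly restrain transmitter release from terminals. Grm3 is also a receptor of astrocytes, and Grm7 is known as a low-affinity receptor of the active zone.

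Splice forms of this family differ mainly in the intracellular tail, which binds scaffolds. The exons below are shown because they tell apart the annotated forms compared later. Each lies on the plus strand of GRCm38 and was read from the GENCODE M21 transcripts. The Grm5 exon of 96 bases at chr7:88116193-88116288 is in Grm5-204 alone among the annotated Grm5 transcripts, keeps the reading frame and corresponds to the insert of the long-tailed form called mGluR5b in rat. The Grm7 exon of 92 bases at chr6:111501510-111501601 is in Grm7-201 and Grm7-205 and does not keep the frame, as in the form called mGluR7b in rat. The Grm7 exon of 34 bases at chr6:110703442-110703475 is in Grm7-204, a transcript annotated as a target of nonsense-mediated decay.
Grm5 96-base exon: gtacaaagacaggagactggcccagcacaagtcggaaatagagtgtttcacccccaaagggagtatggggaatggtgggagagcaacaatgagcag
Grm7 92-base exon: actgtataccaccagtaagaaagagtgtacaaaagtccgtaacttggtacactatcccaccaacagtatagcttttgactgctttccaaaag
Grm7 34-base exon: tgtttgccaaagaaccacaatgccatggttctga

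The title of the series concerns the microRNA miR-137, so the receptor transcripts were searched for its seed match. The mature sequence, from RefSeq on GRCm38.p6, has its seed (bases 2 to 8) in capitals, and the sites are the matches to that seed (AGCAATA, in capitals) with their flanks, on the plus strand of chromosome 7.
mmu-miR-137-3p: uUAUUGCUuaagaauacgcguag
Grm5-202 site 1: ttttttttcaaAGCAATAcagagtactaa
Grm5-202 site 2: ataacattgagAGCAATAtaatcccaaat
Both matches lie in the annotated 3′ UTR of Grm5-202, which is 4038 bases long, at chr7:88132156-88132184 and chr7:88132959-88132987 with their flanks. Grm5-204 ends before them, with a 3′ UTR of 785 bases that holds no match, and no annotated 3′ UTR of Grm2, Grm3, Grm4, Grm7 or Grm8 holds one. The match was searched on the transcript strand, and 9.67% of the longest 3′ UTRs of 21037 genes hold it, as do 26.2% of the 1548 longest 3′ UTRs of a length like that of Grm5 (0.8 to 1.2 times). A match is a description of letters and says nothing of binding.

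The libraries differed in depth, from 1.16 to 8.64 Gb of mapped bases, and in the level at which genes of no known use in the hippocampus were covered. That background was taken as the median FPKM (fragments scaled by transcript length and library size) of 1461 olfactory and vomeronasal receptor genes. It was 1.97 and 2.25 FPKM in cKO females 2 and 3 and between 0.00664 and 0.600 FPKM in the other 10 libraries. Atrx, the targeted gene, checked the labels, with no overlap between cKO and control in either sex: deposited FPKM was 31.0, 36.1 and 38.2 in cKO females against 55.6, 58.8 and 63.6 in control females, and 34.2, 32.3 and 36.5 in cKO males against 46.9, 40.2 and 42.1 in control males (exact two-sided permutation p = 0.1 in either sex, the smallest possible with 3 libraries a group). The main scale below is the gene's FPKM over the union of its exons minus the background of its library and scaled between libraries, called background-subtracted FPKM. Summed marker genes of CA1, CA2 and CA3, dentate granule and interneuron types were present in every library. Interneuron markers summed to 425 and 387 in cKO females 2 and 3, to 230 in cKO female 1 and to 172 to 260 in the other groups. Of these 10 markers, 5 were higher and 5 lower in cKO than in control females, and 0 were called. The part of this in the receptor levels was not tested. Thalamus and habenula markers summed to 12.1 to 15.6 background-subtracted FPKM, with 4 of 7 genes under a mean of 1 in each group. Choroid plexus markers summed to 25.9 to 40.4 in cKO females, 11 to 5104 in control females, 42.4 to 2298 in cKO males and 1234 to 3612 in control males, and the part of this difference in the results was not tested.

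**Figure D1:**
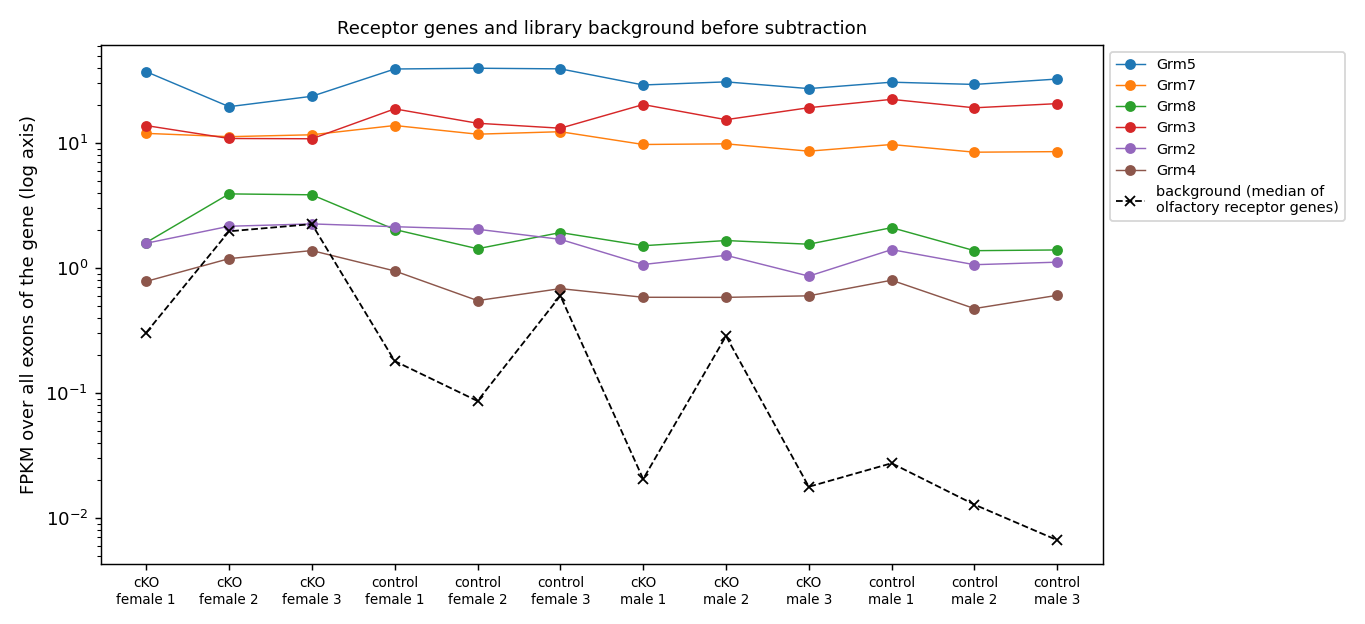
FPKM over all exons of each receptor gene (log axis) and the library background (crosses, the median of 1461 olfactory and vomeronasal receptor genes) in the 12 libraries. The background reaches 1.97 and 2.25 FPKM in cKO females 2 and 3, where it meets Grm2 and exceeds Grm4, while Grm5, Grm3 and Grm7 stay above it in every library.

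The 6 receptors covered a wide range of levels. Averaged over all 12 libraries, background-subtracted FPKM, a value per length, was 30.4 ± 4.02 for Grm5, 15.6 ± 2.89 for Grm3, 10.2 ± 2.33 for Grm7, 1.59 ± 0.563 for Grm8, 0.984 ± 0.486 for Grm2 and 0.382 ± 0.241 for Grm4 (SD, n = 12). Grm5 exceeded Grm3, Grm7 exceeded Grm8 and Grm2 exceeded Grm4 in 12 of 12 libraries. The ranges of neighbours in that order overlapped for Grm3 and Grm7 (Grm3 higher in 10 of 12), for Grm8 and Grm2 (Grm8 higher in 10 of 12) and for Grm2 and Grm4. On the deposited FPKM, which sums transcripts without subtraction, Grm3 was above Grm7 in 5 of 12 libraries and Grm2 above Grm4 in 10 of 12, so these orders depended on the scale. The estimated reads behind a value (bases at a read length of 76) ran from 109 to 506 for Grm4, 162 to 1039 for Grm2, 593 to 1953 for Grm8, 1012 to 7268 for Grm7, 507 to 6929 for Grm3 and 3063 to 42275 for Grm5, with the fewest reads of each gene in cKO female 2.

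**Figure D2:**
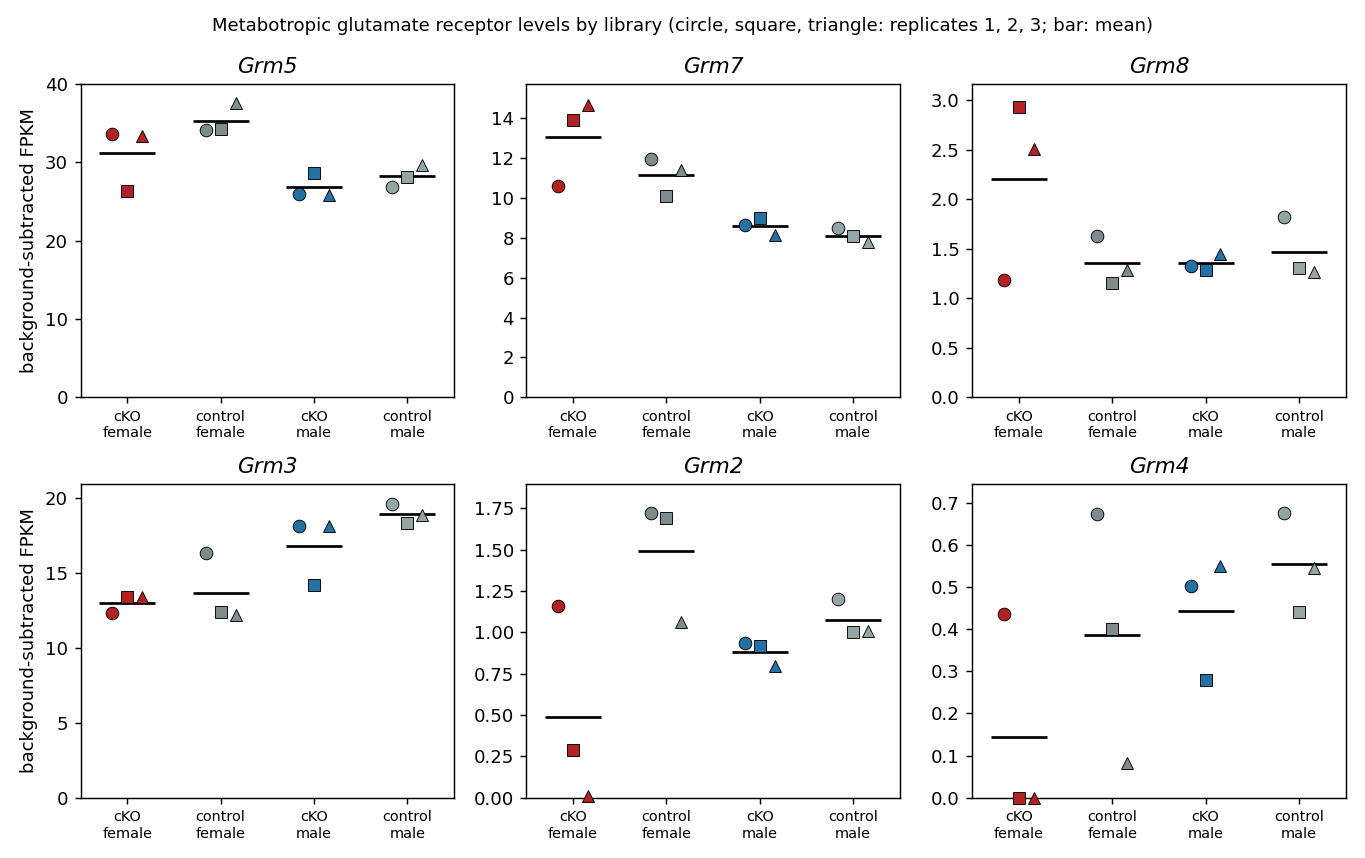
Background-subtracted FPKM of the 6 receptor genes in each library, with the mean of each group as a bar; axes start at 0 and differ between genes. In control males Grm3 lies at 18.3 to 19.5, above all control females, and Grm7 at 7.78 to 8.49, below all control females; in cKO females Grm8 is high in libraries 2 and 3 (2.93 and 2.50) and not in library 1 (1.18).

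None of the 4 receptor genes that could be tested, Grm3, Grm5, Grm7 and Grm8, passed the test between cKO and control hippocampus in females or in males (limma, Benjamini-Hochberg adjusted p over 15060 genes, threshold 0.05). Over all genes tested the same rule called 0.073% in females, 0.00664% in males, 0.0332% for the mean of both effects and 0% for their difference, so a count of 0 among 4 receptors is what the background gives. The minimum was 1 background-subtracted FPKM as a mean and in 3 libraries, and Grm2 and Grm4 were not tested. Grm2 reached 1 in all control females but averaged 0.984 over the 12 libraries. That mean includes 0.287 and 0.0137 in cKO females 2 and 3, after subtraction of their high background. Grm4 was under 1 in every library. At an unadjusted p under 0.05, none of the 4 receptors was called in either sex either, while 4412 of 15060 genes were in females and 351 in males. In bulk tissue a change in the number of cells of a type and a change in RNA per cell cannot be told apart.

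Grm5, the Gq-coupled group I receptor, had 33.7, 26.4 and 33.4 background-subtracted FPKM in cKO females, against 34.2, 34.2 and 37.6 in control females. The highest cKO female, at 33.7, lay close to the lowest control females, at 34.2, and the widest gap was in cKO female 2. The log2 difference (cKO minus control) was -0.19 with a standard error of 0.098 and a 95% interval of -0.404 to 0.031, and limma's adjusted p was 0.226. In males Grm5 had 26.0, 28.7 and 25.8 in cKO against 26.8, 28.2 and 29.7 in controls. The male groups overlapped, and the log2 difference was -0.07 (95% interval -0.290 to 0.145, limma adjusted p = 1). Without cKO females 2 and 3 the female difference was -0.07 (limma adjusted p = 1).

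Grm3, the group II receptor also found on astrocytes, had 12.3, 13.4 and 13.4 background-subtracted FPKM in cKO females, against 16.3, 12.4 and 12.2 in control females. The groups overlapped, and control female 1 was the highest of the 6. The log2 difference was -0.05 (95% interval -0.325 to 0.217, limma adjusted p = 0.798). In males Grm3 had 18.1, 14.2 and 18.1 in cKO against 19.5, 18.3 and 18.9 in controls. The highest cKO males, at 18.1, lay close to the lowest control male, at 18.3. The log2 difference of -0.17 (95% interval -0.445 to 0.097) had a limma adjusted p of 1. Deposited FPKM overlapped between these male groups, with 20.3, 15.4 and 19.2 in cKO against 22.4, 19.2 and 20.7 in controls.

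Grm2, the other group II receptor, is known in the hippocampus from terminals of the perforant path and of mossy fibres. It had 1.16, 0.287 and 0.0137 background-subtracted FPKM in cKO females, against 1.72, 1.69 and 1.07 in control females. The low values were in cKO females 2 and 3, where Grm2 stood at 1.1 and 1.0 times the background before subtraction and where 42.9% and 49.5% of the olfactory and vomeronasal genes were as high or higher. Its deposited FPKM of 1.78, 2.24 and 3.21 in cKO females overlapped the 2.38, 2.21 and 1.98 of control females, so no direction can be read. In males Grm2 had 0.933, 0.918 and 0.799 in cKO against 1.2, 1.0 and 1.01 in controls, and without the minimum the log2 difference was -0.18 (limma adjusted p = 1).

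Grm7, the group III receptor of the active zone, had 10.6, 13.9 and 14.6 background-subtracted FPKM in cKO females, against 12.0, 10.1 and 11.4 in control females. Libraries 2 and 3 of the cKO females were above all controls and library 1 was within their range. The log2 difference was 0.21 with a standard error of 0.114 and a 95% interval of -0.044 to 0.461 (limma adjusted p = 0.243). It depended on which cKO females entered: without cKO female 1 it was 0.35 (limma adjusted p = 0.0117), and without cKO females 2 and 3 it was -0.07 (limma adjusted p = 1). On the deposited FPKM Grm7 had 17.8, 18.3 and 19.0 in cKO females against 20.6, 17.5 and 18.9 in control females, a log2 difference of -0.05 where the median of all genes was 0.88. In males Grm7 had 8.67, 8.98 and 8.13 in cKO against 8.49, 8.07 and 7.78 in controls, overlapping ranges with a log2 difference of 0.08 (95% interval -0.175 to 0.330, limma adjusted p = 1).

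Grm8, the high-affinity group III receptor, showed the widest spread of the tested members. It had 1.18, 2.93 and 2.50 background-subtracted FPKM in cKO females, against 1.63, 1.16 and 1.29 in control females. As for Grm7, cKO females 2 and 3 were the highest and cKO female 1 was among the controls. The log2 difference was 0.49 with a standard error of 0.262 and a 95% interval of -0.093 to 1.065 (limma adjusted p = 0.235). Without cKO female 1 it was 0.80 (limma adjusted p = 0.00565), in a fit that called 5798 of 14943 genes, and without cKO females 2 and 3 it was -0.14 (limma adjusted p = 1). In cKO females 2 and 3 Grm8 stood at 1.99 and 1.72 times the library background before subtraction, against 11.3, 16.5 and 3.21 times in control females. In males Grm8 had 1.33, 1.29 and 1.45 in cKO against 1.82, 1.30 and 1.27 in controls, with a log2 difference of -0.07 (95% interval -0.650 to 0.508, limma adjusted p = 1). The difference between the sexes in the cKO effect, male minus female, was -0.56 for Grm8 (limma adjusted p = 0.585), and -0.87 (limma adjusted p = 0.0307) without cKO female 1. It turned to 0.0643 without cKO females 2 and 3, to 0.11 without the 4 libraries of highest background and to 0.16 with voom, so no direction is read. Averaged over both sexes, the cKO effect was -0.11 for Grm3, -0.13 for Grm5, 0.14 for Grm7 and 0.21 for Grm8 (limma adjusted p between 0.297 and 0.519), and without cKO female 1 it was 0.21 for Grm7 and 0.36 for Grm8 (limma adjusted p = 0.0228 and 0.0419). The averaged effect turned to -0.44 for Grm7 and -0.12 for Grm8 without background subtraction, to -0.62 and -0.26 with voom, and to -0.10 for Grm8 without cKO females 2 and 3.

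Grm4, a group III receptor known chiefly from the cerebellum, was the lowest member. It had 0.435, 0 and 0 background-subtracted FPKM in cKO females, against 0.674, 0.400 and 0.0821 in control females, where the values of 0 stand for levels below the library background. Deposited FPKM gave the opposite order: 1.59, 3.05 and 3.71 in cKO females, each above the 1.47, 0.941 and 1.07 of control females. In cKO females 2 and 3, 75.4% and 77.3% of the olfactory and vomeronasal genes were at or above Grm4, so no change of Grm4 can be read there. In males Grm4 had 0.502, 0.278 and 0.550 in cKO against 0.675, 0.441 and 0.546 in controls, which overlapped.

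**Figure D3:**
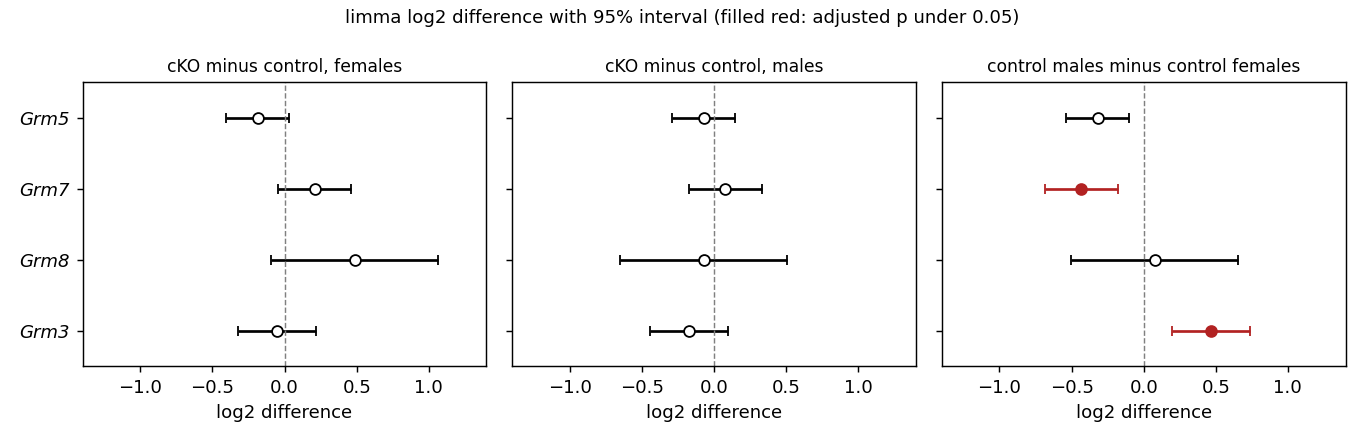
Log2 differences of the 4 tested receptor genes with 95% intervals from limma in 3 comparisons: cKO minus control in females, cKO minus control in males, and control males minus control females. All cKO intervals include 0; between control males and control females Grm3 (0.47) and Grm7 (-0.43) pass an adjusted p of 0.05, a call that scaling without background subtraction does not give and, for Grm7, turns in sign.

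Control males differed from control females in 2 of the 4 tested receptors. Grm3 was higher in control males, with 19.5, 18.3 and 18.9 background-subtracted FPKM against 16.3, 12.4 and 12.2 in control females, and Grm7 was lower, with 8.49, 8.07 and 7.78 in control males against 12.0, 10.1 and 11.4 in control females. Neither pair of groups overlapped, on this scale or on the deposited FPKM, which is not scaled between libraries. The share of all genes whose groups do not overlap was not counted, so the ranges add nothing to the test. The log2 difference was 0.47 for Grm3 (95% interval 0.198 to 0.740, limma adjusted p = 0.0329) and -0.43 for Grm7 (95% interval -0.686 to -0.181, limma adjusted p = 0.0341). The same rule called 11.7% of all genes in this comparison, and the median over all genes was -0.07. Grm5 was at 26.8 to 29.7 in control males and 34.2 to 37.6 in control females without overlap, a log2 difference of -0.32 that did not pass (limma adjusted p = 0.062). Grm8 overlapped, with a log2 difference of 0.08 (limma adjusted p = 0.881). The means of the cKO libraries did not enter this comparison, though their spread did. Library background differed between the sexes in the cKO libraries too, so they are no check of the comparison that is free of background. In these libraries Grm3 was at 14.2 to 18.1 in males and 12.3 to 13.4 in females. Grm7 was at 8.13 to 8.98 in cKO males and 10.6 to 14.6 in cKO females.

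The calls between control males and control females were close to the threshold. Grm3 lost the call when any one of control females 2 and 3 or control males 1, 2 and 3 was left out, and Grm7 when any one of control females 1 and 3, control males 1, 2 and 3 or cKO male 1 was (limma adjusted p between 0.0840 and 0.114 for Grm3 and between 0.053 and 0.127 for Grm7). Grm5 gained a call without cKO female 1 or cKO female 2 (limma adjusted p = 0.0449 and 0.0178). Scaled without background subtraction, Grm3 kept its direction at 1.07 (limma adjusted p = 0.107) and Grm7 was 0.15 (limma adjusted p = 0.689), where the median over all genes was -0.30. Background was 0.00664 to 0.0274 FPKM in control males and 0.0863 to 0.600 FPKM in control females, without overlap. In cKO libraries it was 0.0178 to 0.286 FPKM in males and 0.304 to 2.25 FPKM in females, also without overlap. Sex and library background thus cannot be told apart in either genotype.

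Some markers of glia and of neurons were called in the same comparison, where the rule called 11.7% of all genes. The 8 astrocyte markers summed to 266 to 326 background-subtracted FPKM in control males and 175 to 185 in control females, and 5 of 8 were called higher, among them Gfap at a log2 difference of 0.94 and Aldoc at 0.74 (limma adjusted p = 0.005 and 0.003). The 8 oligodendrocyte markers summed to 553 to 708 in control males and 287 to 392 in control females, with 3 called higher. Microglia markers summed to 78.7 to 84.6 in control males and 58.9 to 63.2 in control females, with 2 of 7 called higher. Of 5 oligodendrocyte precursor markers tested 0 were called, with 3 higher and 2 lower in control males. Of 10 interneuron markers 3 were called lower in control males (Gad1, Gad2 and Reln). Prox1 and Lct of 7 dentate granule markers tested and Wfs1 of 5 CA1 markers were also called lower. In the CA2 and CA3 list Cpne4 and Nptx1 were called lower and Pcp4 higher, at 78.6 background-subtracted FPKM in control males and 52.8 in control females, so the neuronal markers did not all move one way. The part of these differences in the levels of Grm3 and Grm7 was not tested.

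The signalling partners of the receptors were read from lists of known members. Of 10 genes of the Gq arm, 11 of the Gi and Go arm, 14 scaffolds and binding partners, 8 genes of desensitisation and 5 glutamate transporters tested, 0 were called between cKO and control in females and 0 in males. At an unadjusted p under 0.05 limma gave 6 in females and 1 in males, where it gave 4412 and 351 of all 15060 genes, so these lists did not stand above the background. The genes of smallest p in females, none of which passed, were Shank3, a scaffold gene tied to the receptors through Homer, at a log2 difference of -0.57, Shank1 at -1.24, Elfn1, the postsynaptic protein that recruits Grm7 to terminals on interneurons, at -0.97, and Elfn2 at -0.48 (limma adjusted p = 0.114 for each). Pick1, which binds the tail of Grm7, followed at -0.71 (limma adjusted p = 0.129) and the arrestin gene Arrb2 at -1.34 (limma adjusted p = 0.15). Several of these are low genes: the lowest cKO female had 0.272 background-subtracted FPKM for Elfn1, 0.841 for Pick1, 1.13 for Shank1 and 0 for Arrb2, against lows of 1.92, 2.89, 5.19 and 2.24 in control females. No direction is read from these differences. The 14 scaffolds and partners had a median log2 difference of -0.16 in females and -0.06 in males, against 0.02 and 0.03 over all genes. In males the smallest p-values belonged to Rgs2 at -0.23, Shank3 at -0.36, the vesicular transporter gene Slc17a7 at -0.32, Gnai2 at -0.14, Prkcb at -0.13 and Rgs14 at 0.20 (limma adjusted p = 1 for each).

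Between control males and control females the Gq arm held 4 called genes of the 10 reported, all lower in males, where 11.7% of all genes were called in either direction. The Gi and Go arm held 2 of 11, the scaffolds and partners 1 of 14, desensitisation 2 of 8 and the transporters 1 of 5. Prkca, a protein kinase C gene, averaged 17.0 background-subtracted FPKM in control males and 26.9 in control females. It was lower by a log2 difference of -0.65, Cnr1 by -0.54, Gnaq by -0.46 and the phospholipase gene Plcb1 by -0.38 (limma adjusted p between 0.009 and 0.031). Cnr1, the cannabinoid receptor gene of terminals, was counted in the Gq list although its receptor itself acts through Gi and Go. In the Gi and Go arm Gnai2 was higher at 0.45 and the channel gene Kcnj3 lower at -0.64. Ncdn, whose product neurochondrin binds Grm5, was lower at -0.84, and the regulators of G-protein signalling Rgs4 and Rgs8 at -0.27 and -0.56. The neuronal glutamate transporter gene Slc1a1 was lower at -0.53 (limma adjusted p = 0.024). The median of the 10 reported genes of the Gq arm was -0.29, against -0.07 over all genes tested.

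Annotated transcripts were compared on the deposited transcript FPKM without background subtraction. Of the 32 annotated transcripts of the 6 genes, 19 passed the minimum and 0 of these were called between cKO and control in females or in males, where the rule called 0.0693% and 0.0101% of all transcripts (limma over 79332 transcripts). At an unadjusted p under 0.05, 7 of the 19 were called in females and 0 in males, against 37329 and 1033 of all 79332 transcripts, so the 7 are no more than the background gives. The median log2 difference over all transcripts was 0.92 in females and 0.17 in males. Without cKO female 1, 11 receptor transcripts were called in females, in a fit that called 49808 of 76820 transcripts. A fit with a replicate block, given at the end of the text, called Grm8-206 in females.

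Grm5 was carried mainly by Grm5-202, the form with the long 3′ UTR and the seed matches printed above, which held 55.6% of Grm5 FPKM on average in controls. It had 35.9, 12.9 and 17.2 FPKM in cKO females, against 38.1, 37.7 and 37.6 in control females. The low values were in cKO females 2 and 3, in which Grm5-201, an annotated form that ends earlier, had 7.67 and 9.86 FPKM, while it had 0.214 in cKO female 1 and at most 0.198 in the other libraries. The log2 difference of Grm5-202 in females was -0.40 (limma adjusted p = 0.068). In males Grm5-202 had 28.4, 29.5 and 27.2 FPKM in cKO against 30.1, 29.6 and 33.4 in controls, a log2 difference of -0.11 (limma adjusted p = 1). Grm5-204, with the 96-base exon, made up 31.5% to 38.1% of the summed coding forms Grm5-201, Grm5-202 and Grm5-204 in cKO females, 32.7% to 35.2% in control females, 30.8% to 33.5% in cKO males and 28.0% to 32.0% in control males. These ranges overlapped between cKO and control in both sexes. The short non-coding Grm5-205 of the 5′ end took a further 12.0% of Grm5 FPKM on average in controls.

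Grm7 was carried by Grm7-202, the form without the 92-base exon, with 83.6% of Grm7 FPKM on average in controls. Grm7-202 had 14.9, 10.4 and 10.9 FPKM in cKO females, against 16.9, 14.6 and 15.6 in control females, and 11.9, 7.77 and 10.8 in cKO males, against 12.1, 10.7 and 11.2 in control males. Its low values in cKO females 2 and 3 and cKO male 2 came with high values of Grm7-204, the form with the 34-base exon, at 4.84, 4.15 and 5.11 FPKM, against 0.510 to 1.91 FPKM in the other libraries. Those 3 libraries had background medians of 1.97, 2.25 and 0.286 FPKM. Control female 3 and cKO female 1 had higher backgrounds than cKO male 2, at 0.600 and 0.304 FPKM, and had 1.14 and 1.43 FPKM of Grm7-204. The cause of the high Grm7-204 values was not tested. Grm7-201, which holds the 92-base exon, made up 3.18% to 11% of the sum with Grm7-202 in cKO females, 3.26% to 6.77% in control females, 3.87% to 12.2% in cKO males and 2.46% to 5.37% in control males, with overlap in both sexes.

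Grm8 was split between Grm8-203, Grm8-202 and Grm8-201, with 49.6%, 25.1% and 11.7% of Grm8 FPKM on average in controls. Grm8-203 was listed at 0 in cKO females 2 and 3 and at 2.61 FPKM in cKO female 1, against 3.5, 2.76 and 3.52 FPKM in control females, while Grm8-202 had 0.665, 4.43 and 3.29 FPKM in cKO females against 1.23, 0.477 and 0.00598 in control females. The same exchange was seen in cKO male 1 and control male 3, where Grm8-203 was at 0.138 and 0.345 and Grm8-202 at 3.20 and 2.69 FPKM. It was therefore found in cKO and in control libraries. The sum of the 3 forms was 3.78 to 5.65 FPKM in cKO females and 3.55 to 5.07 in control females, overlapping, whereas the other Grm8 transcripts summed to 0.993 to 7.03 FPKM in cKO females and 0.873 to 1.32 in control females. The high gene-level Grm8 of cKO females 2 and 3 on the deposited FPKM, 12.6 and 11.8 against 4.42 to 6.22 in control females, thus lay largely in these other transcripts.

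**Figure D4:**
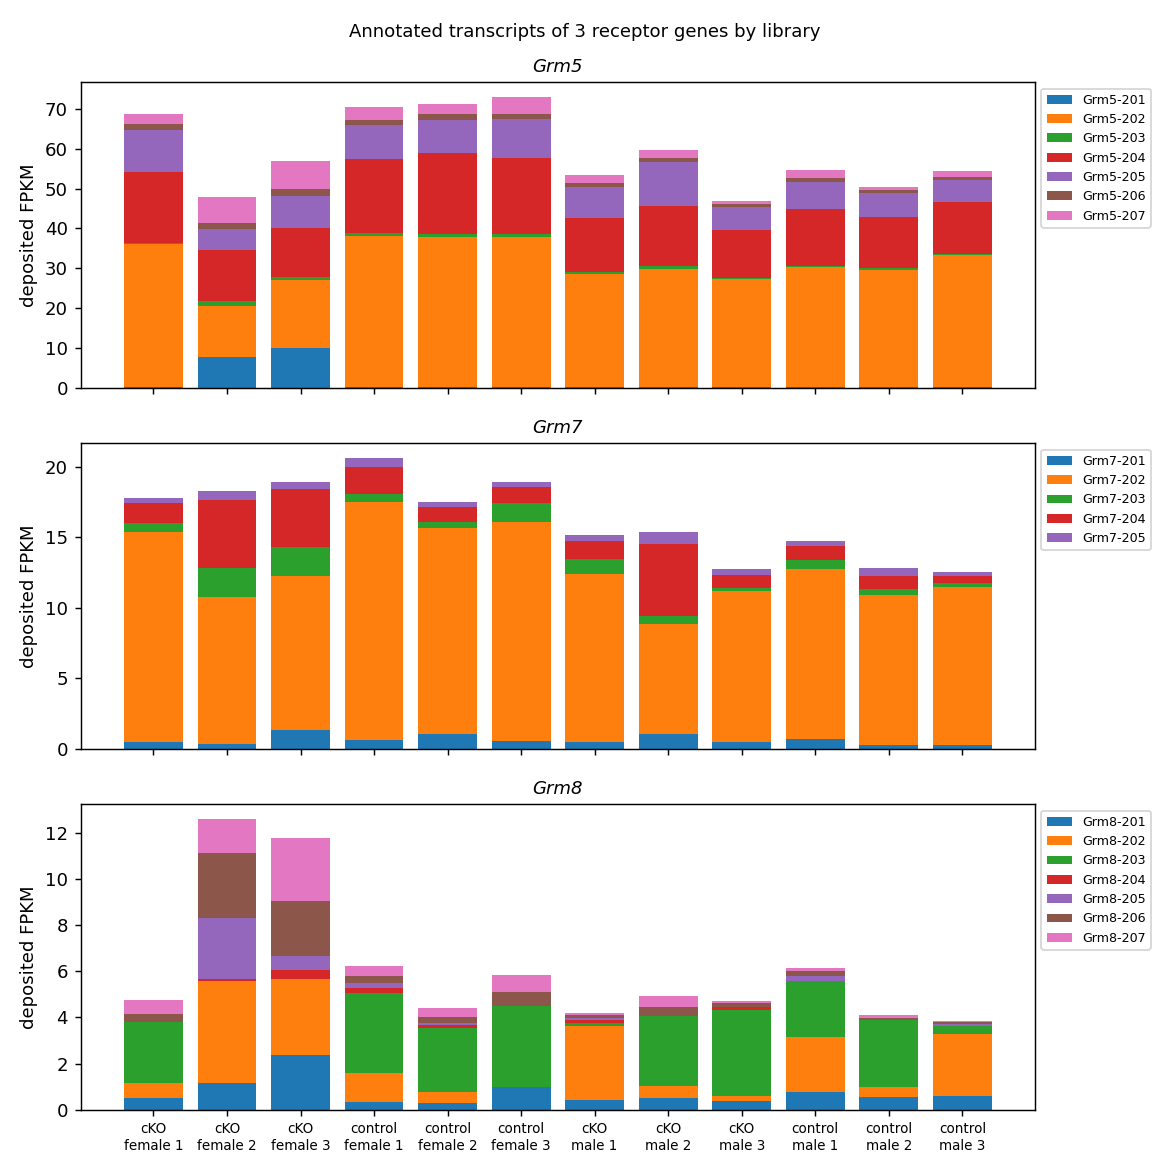
Deposited FPKM of each annotated transcript of Grm5, Grm7 and Grm8, stacked by library. In cKO females 2 and 3 Grm5-201 appears (7.67 and 9.86 FPKM), Grm7-204 is at 4.84 and 4.15 FPKM and Grm8-203 is listed at 0, while cKO female 1 resembles the control females.

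Grm3 has 1 annotated transcript in the tables, Grm3-201, and Grm2-201 held 89.3% of Grm2 FPKM on average in controls. Grm4 was split unevenly between libraries. On average in controls Grm4-201 held 61.7% of Grm4 FPKM, Grm4-203 12.2% and Grm4-205 10.9%, but Grm4-201 held 17.3% in cKO female 2, 29.9% in cKO female 3 and 2.16% in control male 1. In control male 1 Grm4-205 held 64.6%, with 0.94 FPKM, against at most 0.06 FPKM elsewhere.

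The receptor genes lie apart in the genome except for Grm7 and Grm8, which share chromosome 6. On GRCm38 and in 1-based coordinates, Grm2 (ENSMUSG00000023192) spans chr9:106643095-106656082 on the minus strand and Grm3 (ENSMUSG00000003974) chr5:9485541-9725170 on the minus strand. Grm4 (ENSMUSG00000063239) spans chr17:27422387-27521403 on the minus strand, and Grm5 (ENSMUSG00000049583) chr7:87584168-88134907 on the plus strand. Grm7 (ENSMUSG00000056755) spans chr6:110645581-111567230 on the plus strand and Grm8 (ENSMUSG00000024211) chr6:27275119-28135178 on the minus strand. Whether strand was used in the quantification is unknown, so reads of Grm2 and Grm7 cannot be told apart from those of the antisense genes annotated over them, Gm28111 and Gm20387.

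Genes whose log2 level followed a receptor most closely over the 12 libraries were taken by Pearson's r as a description, since the libraries share groups, depth and background. Grm5 was followed by Dgkb, a diacylglycerol kinase gene, at an r of 0.977, by Lrrc4 at 0.959 and by Tnfaip8l3 at 0.955. Grm3 was followed by Serpine2 at 0.967, Kif5a at 0.942 and Ak3 at 0.937. Grm7 was followed by Atmin at 0.989, Gm2231 at 0.988 and Etv3 at 0.986, and Grm8 by Cobl at 0.983, Pamr1 at 0.957 and Lasp1 at 0.953. Among the members themselves, Grm3 had an r of -0.67 with Grm5 and -0.70 with Grm7, Grm7 and Grm8 an r of 0.68, Grm5 and Grm7 an r of 0.48, Grm5 and Grm8 an r of -0.23, and Grm8 an r of -0.09 with Grm3.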

How the data were processed

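Each library has 1 deposited table of 137862 annotated transcripts with the authors' FPKM and their coverage (average read depth along the transcript). HISAT2 2.0.4, StringTie and the build GRCm38.p6 are named per the submitters' processing notes; trimming and strand use are not. The tables hold no read counts. FPKM was a constant multiple of coverage in each table, which gave the mapped bases of each library. Of 54532 genes, 54495 matched GENCODE M21.

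Per gene, coverage times length was summed over transcripts and divided by the length of the exon union. The median over 1461 olfactory and vomeronasal receptor genes was subtracted, values under 0 were set to 0, and libraries were scaled by median ratios over 5349 protein-coding genes averaging 5 or more. The 15060 genes averaging 1 or more, and reaching 1 in 3 libraries, were analysed as log2(value + 0.5), so a log2 difference understates the change of low genes. limma 3.58.1 in R 4.3.3 (trend and robust) fitted 4 group means over 12 libraries, two-sided, with Benjamini-Hochberg adjustment over all genes and a threshold of 0.05. Transcripts were fitted likewise on scaled deposited FPKM without subtraction, with a minimum of 0.5 in 3 libraries. Python 3.11.15 did the rest.

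The members, lists and tests were chosen with earlier results of these data known. A gene of the Gq list is not reported here. Named are the members, the list genes called or up to 6 of smallest p in either sex, the 3 genes of highest r with each tested member, and transcripts with at least 10% of the gene's FPKM in controls; other transcripts, control-sex list genes and markers were named after their values were seen. Alternatives changed the subtraction, scaling, pseudocount, minimum, libraries and model (voom of limma on reads estimated at an assumed length of 76 bases). The fit was also run on simulated data. Their background was drawn from the same olfactory and vomeronasal genes, so that run cannot test the subtraction. The precision of low genes is limited by depth; no counting intervals were made, as the files give no counts. The labels do not say whether equal replicate numbers mark a pair, and the main fit has no block for them. Over 6 pairs of cKO and control with 1 number, deviations from the group means correlated at -0.30 to 0.38, with 3 of 6 over 0.1. These correlations cannot exclude a pairing, since depth and background also differ between libraries.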

Additional observations from a re-analysis of the deposited data

How the results depend on the processing

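Depth and background limit the low members: Grm2 and Grm4 rest on the fewest reads. In cKO females 2 and 3, Grm2, Grm4 and Grm8 rest on values near the background. Of the values of single receptors under settings other than leaving out 1 library, 147 kept their direction and side of the threshold, 38 turned in sign, 8 lost a call and 3 gained one. The cause of these shifts was not tested. The 2 receptor calls between control males and control females became 0 without background subtraction, on the deposited FPKM, without the minimum (51535 genes tested in place of 15060) and with voom. Leaving out 1 library at a time, calls ran from 0 to 3 there, from 0 to 2 for cKO females and for the mean effect, from 0 to 1 for the difference of effects and from 0 to 11 for transcripts in females; the high ends of the cKO counts came without cKO female 1.

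Without background subtraction (median-of-ratios scaling), Grm7 was -0.75 in cKO females, -0.13 in cKO males and -0.44 for the mean, and Grm8 was -0.0167 in cKO females and -0.12 for the mean; the difference of effects was 0.62 for Grm3 and 0.62 for Grm7, and control males against control females 0.23 for Grm5 and 0.15 for Grm7. The medians of all genes were then 0.31 in cKO females and -0.30 between control sexes. On the deposited FPKM, Grm7 was -0.0476 in cKO females, Grm5 0.00044 in cKO males, the difference of effects 0.18 for Grm3 and 0.15 for Grm7, and Grm8 -0.22 between control sexes. With voom, Grm7 was -1.15, -0.0841 and -0.62 in cKO females, cKO males and the mean, Grm8 was -0.34 in cKO females and -0.26 for the mean, the difference of effects was 1.04, 1.07 and 0.16 for Grm3, Grm7 and Grm8, and Grm5 was 0.18 and Grm7 0.0248 between control sexes, where the median of all genes was -1.19. Without cKO females 2 and 3, Grm7 was -0.0652 and Grm8 -0.14 in cKO females, Grm8 was -0.10 for the mean, and the difference of effects was -0.0052, 0.14 and 0.0643 for Grm5, Grm7 and Grm8. Without the 4 libraries of highest background, Grm7 was -0.0488 and Grm8 -0.16 in cKO females, Grm7 was -0.00093 and Grm8 -0.10 for the mean, and the difference of effects was 0.14, -0.10, 0.10 and 0.11 for Grm3, Grm5, Grm7 and Grm8. Leaving out 1 library, Grm3 ran from -0.12 to 0.0781 in cKO females, Grm8 from -0.14 to 0.0541 in cKO males and Grm8 from -0.0482 to 0.18 between control sexes.

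With a replicate block, 0 receptor genes were called for cKO females, cKO males, the mean or the difference, as without it, and 1 receptor transcript was called in cKO females, Grm8-206, at a log2 difference of 1.61 (limma adjusted p = 0.0465, in a fit that called 20332 transcripts); 2 of 6 cKO libraries correlated best with the control of their own number. Control males against control females could not be fitted with the block.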
